A study of Mus musculus with 48 samples.

Results

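The CXC chemokines were described here as 9 genes of the 49315 in the count table, chosen by name: Cxcl1, Cxcl2, Cxcl3, Cxcl5, Cxcl9, Cxcl10, Cxcl11, Cxcl16 and Pf4. Each symbol matched 1 Ensembl gene. The members were grouped by role into 4 neutrophil-attracting ligands (Cxcl1, Cxcl2, Cxcl3 and Cxcl5), 3 interferon-dependent ligands (Cxcl9, Cxcl10 and Cxcl11) and 2 others (Cxcl16 and Pf4).

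Chemokines are small secreted proteins that direct the movement of leukocytes through G protein-coupled receptors, and the CXC family carries a single residue between its first cysteine pair. CXCL1, CXCL2, CXCL3 and CXCL5 bind CXCR2 and recruit neutrophils, and their genes are classic targets of NF-kB, which Toll-like receptors activate. CXCL9, CXCL10 and CXCL11 bind CXCR3 on activated T cells and NK cells, and their genes respond to interferons. CXCL16 is made as a membrane protein that binds CXCR6 and is shed by the proteases ADAM10 and ADAM17, and PF4 (CXCL4) is best known as a product of platelets.

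Transcripts were measured by polyA RNA-seq in bone marrow-derived macrophages, which are marrow cells differentiated in culture with M-CSF, from wild-type (WT) mice and from mice labelled LynAKO, LynBKO and total LynKO. The kinase Lyn, of the Src family, has the splice isoforms LynA and LynB. After a night without M-CSF, the cells of all groups were left without ligand (NT) or given LPS of S. Minnesota R595, a ligand of TLR4, at 2 ng/mL or R848 (resiquimod), a ligand of TLR7 in mouse, at 20 ng/mL, for 2 h. Each of the 12 groups held 4 libraries, labelled as replicates 1 to 4 (2 male and 2 female). The same number within a genotype was taken as the same mouse, which gives 4 mice per genotype. LPS and R848 were compared at these single doses and this single time. Ages and background strain are not stated in the labels.

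The 9 genes lie in 3 places. In GRCm38, Cxcl5, Pf4, Cxcl3, Cxcl1 and Cxcl2 occupy 146.6 kb of chromosome 5 (90759360 to 90905938, plus strand), and Cxcl9, Cxcl10 and Cxcl11 occupy 44.1 kb of the same chromosome (92321347 to 92365485, minus strand). A gap of 1415.4 kb separates them. Cxcl16 lies on chromosome 11 (70453983 to 70459984, minus strand). An exon of Cxcl10, Cxcl11 and Cxcl16 overlaps an exon of Art3, Gm2673 and Zmynd15 on the other strand, and since no source used here gives the strand setting of the counting, reads of these pairs could not be told apart. Of all 50-base stretches of the transcripts, 5.84% in Cxcl2 and 4.24% in Cxcl3 also occur in another gene, against at most 0.69% in the other 7 members.

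The promoter sequences of members from both roles are shown because the 2 roles parted by ligand in the measurements that follow. RefSeq (GRCm38.p6) gave a window of 250 bases before to 50 bases after the start site for 6 members; Cxcl5, Cxcl11 and Cxcl16 had none in that table. The 250 bases before the start are printed 5′ to 3′ on the strand of the gene. Capitals mark matches, on either strand, to a kB-type run (GGG, any 3 bases, TTCC) and to the longer run of GGG, AATTT and CCC that contains it. They also mark the core of an interferon-stimulated response element (GAAA, any 2 bases, GAAA).
Cxcl1, chr5:90890995-90891244, plus strand: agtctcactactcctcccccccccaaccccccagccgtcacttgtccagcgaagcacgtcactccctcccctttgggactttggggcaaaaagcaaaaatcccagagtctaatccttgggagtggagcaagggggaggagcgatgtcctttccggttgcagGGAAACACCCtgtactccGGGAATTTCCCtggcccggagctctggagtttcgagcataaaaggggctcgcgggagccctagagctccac
Cxcl2, chr5:90903649-90903898, plus strand: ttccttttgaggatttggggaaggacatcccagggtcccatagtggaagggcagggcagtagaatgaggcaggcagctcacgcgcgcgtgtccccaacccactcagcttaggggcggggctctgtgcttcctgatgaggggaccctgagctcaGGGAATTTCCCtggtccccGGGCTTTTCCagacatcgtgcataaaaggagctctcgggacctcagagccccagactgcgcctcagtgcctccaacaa
Cxcl3, chr5:90785851-90786100, plus strand: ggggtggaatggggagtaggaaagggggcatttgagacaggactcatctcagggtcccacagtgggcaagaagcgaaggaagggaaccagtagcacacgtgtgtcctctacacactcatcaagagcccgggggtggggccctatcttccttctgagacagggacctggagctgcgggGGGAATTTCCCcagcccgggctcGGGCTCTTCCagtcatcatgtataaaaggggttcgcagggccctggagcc
Cxcl10, chr5:92348890-92349139, minus strand: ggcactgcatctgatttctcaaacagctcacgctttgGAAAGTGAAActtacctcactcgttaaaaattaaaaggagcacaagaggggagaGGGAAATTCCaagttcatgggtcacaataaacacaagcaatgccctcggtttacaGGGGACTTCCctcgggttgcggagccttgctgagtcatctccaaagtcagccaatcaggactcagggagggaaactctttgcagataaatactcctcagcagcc
Cxcl9, chr5:92328080-92328329, minus strand: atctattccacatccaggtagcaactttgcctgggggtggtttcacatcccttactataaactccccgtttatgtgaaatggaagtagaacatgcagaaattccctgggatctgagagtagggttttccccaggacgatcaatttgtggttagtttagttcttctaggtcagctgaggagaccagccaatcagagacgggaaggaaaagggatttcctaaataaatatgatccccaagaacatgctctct
The windows of Cxcl1, Cxcl2, Cxcl3 and Cxcl10 each held 2 separate kB-type runs, and 5.56% of all 32851 windows of this length hold at least 1. In Cxcl1, Cxcl2 and Cxcl3, 1 of these was the longer run. It begins 71, 97 and 73 bases upstream of the start and occurs in 14 of the 32851 windows (0.04%). Cxcl10 had no palindromic run but held the response element core 213 bases upstream, a match that 3.44% of all windows share. Neither run was found in the windows of Cxcl9 and Pf4. These are matches of letters, not measured binding.

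Total counts were 14974764 to 23321447 per library, and 13986 genes passed the filter on low counts. Levels are given as CPM, the counts of a gene relative to the TMM-scaled total of its library, and ± after a level is the SD of 4 libraries. Lyn itself was at 177 ± 10.4 CPM in untreated WT, 118 ± 11.5 for LynAKO, 125 ± 6.38 for LynBKO and 67.6 ± 4.15 for LynKO (n = 4 each), so its transcript was still counted in the total knockout. Macrophage markers (Adgre1, Csf1r, Cd68, Itgam, Fcgr1, Mertk and Lyz2) summed to 19578 to 43112 CPM per library. The sum was lower in LynKO than in WT without overlap. It was 22391 to 25157 against 35084 to 43112 CPM untreated, 20675 to 24192 against 31245 to 37191 with LPS, and 19578 to 24992 against 32421 to 35434 with R848. Lyz2 was the largest of the list (13049.5 to 35974.7 CPM over all libraries). Csf1r followed at 3056 to 4824 CPM and Adgre1 at 1204 to 2234 CPM, so the sum mostly follows Lyz2. Genotype differences of the other markers are not given, and the sum is not a measure of macrophage content. The part of the lower sum in the levels of the members was not tested. The T and NK cell list summed to at most 0.621 CPM and the B cell list to at most 0.649 CPM. In 2 untreated libraries, LynBKO replicate 4 and LynKO replicate 4, transcripts specific to both sexes were present; each result below that uses them is given without them where its call changes, which happened for no member. In these bulk samples, fewer cells making a transcript and less transcript per cell cannot be told apart.

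Without ligand, Cxcl16 was the abundant member. It stood at 257 to 355 CPM over the 16 untreated libraries. Cxcl2 (4.86 to 14.0 CPM), Cxcl10 (2.00 to 11.5 CPM) and Pf4 (6.11 to 13.7 CPM) followed. Cxcl1 (0.634 to 2.90 CPM) and Cxcl3 (0.267 to 1.43 CPM) were near 1 CPM. Cxcl5, Cxcl9 and Cxcl11 were at trace level: over all 16 untreated libraries they had 3, 11 and 6 counts, and 14, 8 and 11 of the libraries had none. These 3 genes passed the filter through ligand-treated libraries alone, Cxcl9 and Cxcl11 through those with LPS and Cxcl5 through those with R848. A difference from NT, and for Cxcl9 and Cxcl11 one from R848, was therefore built into their passing. Cxcl5 reached the filter's level in 9 of 16 R848 libraries and 2 of 16 LPS libraries, so its passing favoured R848 over LPS.

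**Figure D1:**
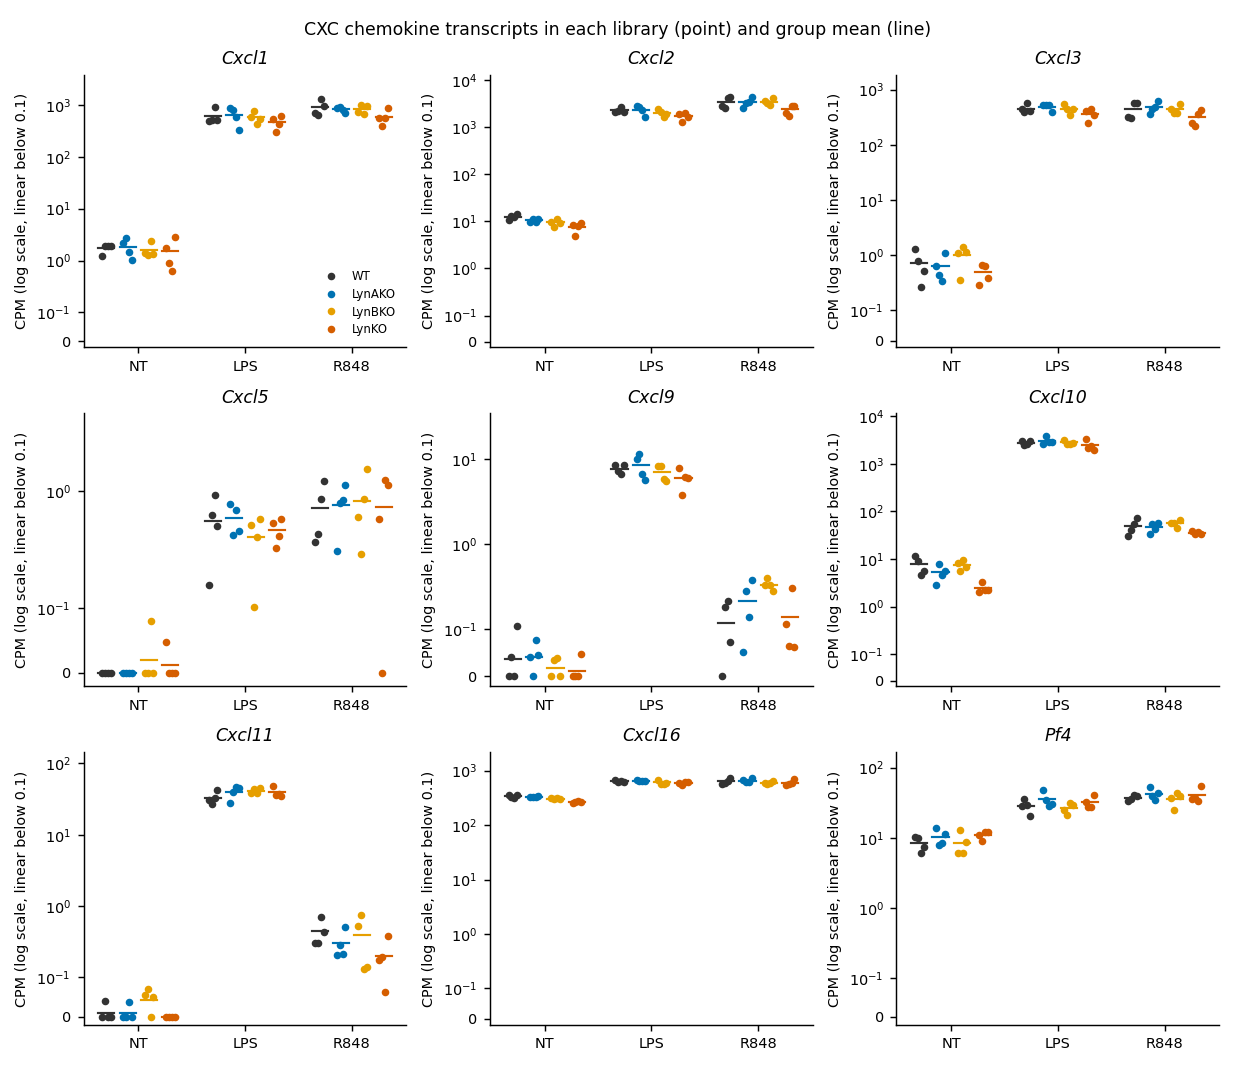
CPM of each member (panel) in each library (points) and the mean of 4 libraries (line), by treatment and genotype (colour), on a log axis that is linear below 0.1 CPM. Cxcl1, Cxcl2, Cxcl3 and Cxcl5 are high with both ligands, Cxcl9, Cxcl10 and Cxcl11 are high with LPS and far lower with R848, and Cxcl16 and Pf4 move less.

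The neutrophil-attracting ligands rose with both ligands. In WT, Cxcl2, also known as MIP-2, had 10.7, 13.1, 12.2 and 14.0 CPM in the 4 untreated libraries, 2109, 2183, 2708 and 2060.4 CPM with LPS and 2752, 2579, 4150.5 and 4284 CPM with R848. The 3 groups did not overlap for NT against either ligand, while the LPS and R848 ranges met (2060.4 to 2708 against 2579 to 4284 CPM). Its log2 fold change was 7.51 ± 0.20 (SE) with LPS, or 183-fold, and 8.13 ± 0.20 with R848, or 280.2-fold (adjusted p = 1.36e-15 and 1.11e-15, edgeR).

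Cxcl1, the KC chemokine, had 1.21, 1.95, 1.87 and 1.94 CPM untreated, 496, 516, 911 and 515 CPM with LPS and 694, 636, 1285 and 962 CPM with R848 in WT. Mouse 3 was the highest WT library with each ligand. The rise was 8.45 ± 0.30 on the log2 scale with LPS and 9.01 ± 0.31 with R848 (adjusted p = 6.83e-14 and 6.74e-14). Cxcl3, the neighbour of both and a CXCR2 ligand too, had 1.30, 0.770, 0.267 and 0.512 CPM untreated, 444, 395, 564 and 402 CPM with LPS and 314, 307, 576 and 568 CPM with R848. Its log2 fold changes were 9.36 ± 0.34 and 9.34 ± 0.34 (adjusted p = 6.83e-14 and 1.05e-13), and no treated library of any genotype came near an untreated one.

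Cxcl5 (LIX), whose gene stands at the other end of the same block, was at most 1.54 CPM in any library. WT had 0 counts untreated, 34 counts over the 4 LPS libraries and 42 over the 4 R848 libraries, or 0.156, 0.620, 0.930 and 0.499 CPM and 0.367, 0.430, 0.850 and 1.23 CPM. Against a floor of 3 counts over the untreated group, it was at least 18.8-fold higher with LPS and at least 23.0-fold higher with R848 in WT, and at least 19.1-fold and 24.1-fold higher in LynAKO. In LynKO, 1 of the 4 R848 libraries had no Cxcl5 count.

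The interferon-dependent ligands split by ligand. Cxcl10 (IP-10) had 11.5, 9.20, 4.70 and 5.48 CPM in untreated WT, 2999.9, 2484, 2567 and 3031 CPM with LPS and 30.7, 40.2, 55.3 and 71.7 CPM with R848. The 3 groups were apart, with every R848 library above every untreated one and every LPS library far above both. The rise was 364-fold with LPS (log2 8.51 ± 0.32, adjusted p = 1.14e-13) and 6.55-fold with R848 (log2 2.71 ± 0.26, adjusted p = 7.13e-08).

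Cxcl11 (I-TAC) had 31.1, 27.2, 32.7 and 42.1 CPM with LPS and 0.306, 0.307, 0.709 and 0.434 CPM with R848 in WT, against 1 count over the 4 untreated libraries. The ratio to the pooled untreated level was 3270-fold with LPS (95% counting interval 586 to 129225.0) and 42.8-fold with R848 (7.03 to 1755), so its size is known only as a range. Cxcl9 (MIG) had 8.68, 7.34, 6.65 and 8.48 CPM with LPS and 0, 0.184, 0.213 and 0.0723 CPM with R848 in WT, where the 4 untreated libraries had 4 counts and the 4 R848 libraries 7. LPS raised Cxcl9 by a ratio of 193 (counting interval 74.7 to 710.1). R848 gave a ratio of 2.88 (0.732 to 13.4), and the edgeR test did not call it in WT (adjusted p = 0.175).

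Cxcl16, the shed membrane chemokine, had 355, 330.2, 313 and 355 CPM untreated, 680.5, 618, 648 and 622 CPM with LPS and 576, 595, 658 and 724 CPM with R848 in WT. It rose 1.92-fold and 1.93-fold (adjusted p = 2.01e-08 and 2.62e-08), and treated and untreated libraries did not overlap. Pf4 had 10.2, 9.93, 6.11 and 7.46 CPM untreated, 28.1, 35.9, 29.8 and 20.3 CPM with LPS and 33.5, 35.7, 41.2 and 39.4 CPM with R848, a rise of 3.44-fold and 4.55-fold (adjusted p = 5.38e-08 and 4.87e-09). Defining platelet and megakaryocyte genes were near 0 beside it: Gp9 reached at most 0.199 CPM and Gp1bb at most 0.143 CPM, and the summed list of 7 was 1.86 to 15.8 CPM per library. Treml1, which reached 13.2 CPM, was the largest of that list and was lower with each ligand in WT. Ppbp (CXCL7), a platelet ligand of the same family and list, had medians of 0.117 CPM untreated, 0.353 CPM with LPS and 0.438 CPM with R848, in the order of Pf4, and was not called in WT (adjusted p = 0.0721 and 0.214). The part of these cells in the level of Pf4 was not tested.

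The knockouts were alike in direction, with the 3 interferon-dependent members higher with LPS than with R848 in each. In LynKO, Cxcl10 had 3352, 2112, 2369 and 1912 CPM with LPS and 39.2, 34.1, 36.0 and 34.2 CPM with R848, and the untreated libraries had 2.00 to 3.21 CPM. Cxcl2 in LynKO had 1923, 1289.9, 1992 and 1649 CPM with LPS and 2018, 1734, 2827 and 2857 CPM with R848. The Cxcl10 libraries of the 3 treatments were again apart, while those of Cxcl2 met between the ligands.

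In LynAKO, Cxcl10 had 2573, 3819, 2923 and 2901 CPM with LPS and 33.4, 53.4, 42.8 and 57.7 CPM with R848, and Cxcl2 2793, 2614, 2317 and 1640.2 CPM with LPS and 2522, 3263, 3344 and 4326 CPM with R848. In LynBKO, Cxcl10 had 3228, 2666, 2582 and 2760.2 CPM with LPS and 57.4, 57.0, 44.7 and 65.3 CPM with R848, and Cxcl2 2439.9, 2056, 1619.5 and 1914 CPM with LPS and 3562, 3189, 2904 and 4208 CPM with R848. In both genotypes every LPS library held more Cxcl10 than any R848 library, and in LynBKO every R848 library held more Cxcl2 than any LPS library. Cxcl1, the partner of Cxcl2 in role, ranged over 335 to 863 CPM with LPS and 702 to 924 CPM with R848 in LynAKO, 422 to 766 and 668 to 983 CPM in LynBKO, and 302 to 600.0 and 396 to 863 CPM in LynKO. Cxcl3 ranged over 391 to 524 and 359 to 625 CPM, 349 to 540.0 and 382 to 558 CPM, and 246 to 436 and 220.4 to 429.9 CPM in the same order. Cxcl1 and Cxcl3 thus had overlapping ligand ranges in each knockout.

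Cxcl11 with LPS ranged over 27.9 to 46.1 CPM in LynAKO, 38.2 to 45.9 CPM in LynBKO and 35.3 to 47.9 CPM in LynKO, and with R848 it was at most 0.753 CPM in any library. Cxcl9 with LPS ranged over 5.67 to 11.6, 5.57 to 8.46 and 3.84 to 7.88 CPM, and with R848 it was at most 0.406 CPM. Neither gene had an R848 library within its LPS range. Cxcl16 with LPS and R848 spanned 537 to 680.5 and 543 to 724 CPM over all 16 libraries each, and Pf4 had medians of 29.6 and 37.7 CPM, with both genes overlapping between the ligands.

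Ordered by group mean, neighbouring groups of the 12 mostly overlapped, and except for Cxcl16 the breaks fell between treatments. Cxcl10 had 2 breaks among 11 neighbours: the LPS groups (2437 to 3054 CPM) lay above the R848 groups (35.9 to 56.1 CPM), and these above the untreated groups (2.43 to 7.73 CPM). Cxcl9 and Cxcl11 had their 1 break below the LPS groups. Cxcl1, Cxcl2, Cxcl3, Cxcl5 and Pf4 had theirs above the untreated groups, with the LPS and R848 groups in 1 run. The R848 means of Cxcl2 (2359 to 3466 CPM) all stood above its LPS means (1714 to 2341 CPM), and the means of Cxcl3 were mixed. Cxcl16 had 3 breaks, of which 2 parted untreated LynBKO from LynAKO and untreated LynKO from LynBKO. Untreated LynBKO (296.2 to 313.9 CPM) lay close below LynAKO (323.8 to 344.7 CPM) and overlapped WT (312.7 to 354.7 CPM). The edgeR test did not call LynAKO against LynBKO (adjusted p = 0.584). How often such breaks occur over all genes was not counted, so the breaks are a description. LynKO had the lowest untreated mean for Cxcl1, Cxcl2, Cxcl3, Cxcl10 and Cxcl16 and, at trace counts, for Cxcl9 and Cxcl11.

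Over the 4 genotypes, all 9 members were called higher with LPS, where 31.5% of all genes tested were called higher in WT, 30.4% for LynAKO, 33.9% for LynBKO and 31.0% for LynKO. With R848, 8 members were called higher in WT and 9 in each knockout, beside 30.0%, 29.0%, 31.3% and 28.4% of all genes. Cxcl5, Cxcl9 and Cxcl11 had to differ to be tested, so these counts describe the members and no more. The other 6 members met the filter in the untreated libraries as well, and all 6 were called higher with each ligand in every genotype. The call of Cxcl9 with R848 in LynAKO (adjusted p = 0.026) was lost without replicate 2 (0.127) or replicate 4 (0.124), and that in LynKO (0.0222, on 1 untreated and 9 R848 counts) without replicate 1 (0.065) or replicate 3 (0.201). In WT the median log2 fold change of the 4 neutrophil-attracting members was 7.98 with LPS and 8.57 with R848, and that of the 3 interferon-dependent members 8.51 with LPS and 2.71 with R848, beside -0.03 over all genes in each comparison. Both medians of the 3 are the values of Cxcl10 itself. Each set also holds members that passed the filter through ligand-treated libraries alone, so these medians are a description. The comparisons with LPS and R848 share their untreated libraries.

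LPS and R848 were then compared directly within each genotype, a comparison that leaves the untreated libraries out. The fit as reported held no term for the mouse. Results with the mouse as a block are given beside it where a call changed. Of all genes tested, 10.9% were higher with LPS in WT, 9.70% for LynAKO, 14.2% for LynBKO and 9.73% for LynKO. Cxcl10 was called higher with LPS in all 4 genotypes. Cxcl9 and Cxcl11 were also past the threshold in all 4, but they were tested only because they were high with LPS (0 and 2 of 16 R848 libraries reached the filter's level), so their values are given as a description. No other member was called higher with LPS. In WT, Cxcl10 was 55.5-fold higher with LPS (log2 5.80 ± 0.28, adjusted p = 4.71e-11). As a description, Cxcl11 was 75.3-fold higher (log2 6.23 ± 0.24) and Cxcl9 62.9-fold higher (log2 5.98 ± 0.45), the last against 7 R848 counts. In the knockouts the log2 difference was 5.65 to 6.09 for Cxcl10, 6.67 to 7.57 for Cxcl11 and 4.36 to 5.36 for Cxcl9. Within single mice the direction was the same throughout: LPS was above R848 in 16 of 16 mice for Cxcl10 and Cxcl11, and in all 15 mice with a Cxcl9 count in both.

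The neutrophil-attracting members went the other way or did not part. Beside them, 10.0% of all genes were lower with LPS than with R848 in WT, 7.92% for LynAKO, 12.3% for LynBKO and 6.13% for LynKO. Cxcl2 was called lower with LPS in WT (1.53-fold, log2 -0.62 ± 0.15, adjusted p = 0.00535), in LynAKO (-0.53 ± 0.16, 0.0237) and in LynBKO (-0.79 ± 0.13, 0.000136). In LynKO it was not called (-0.45 ± 0.18, adjusted p = 0.107), but was with the mouse as a block (0.000856), without the filter (1.70e-07), with sex as a covariate (0.0361) and without replicate 2 (0.0435). Without replicate 4 the call in WT was lost (adjusted p = 0.064), and in LynAKO it was lost without replicate 2, 3 or 4 (0.0685, 0.123 and 0.128). Cxcl2 was higher with R848 than with LPS in 15 of 16 mice.

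Cxcl1 was higher with R848 in 16 of 16 mice, with a log2 ratio of LPS over R848 of -0.43 as the median and -1.07 to -0.03 as the range. It was called in LynBKO (-0.53 ± 0.16, adjusted p = 0.02), a call lost with DESeq2 (0.078), with all 48 libraries in 1 fit (0.14) and without replicate 4 (0.141), and not in WT (-0.57 ± 0.21, 0.0615), LynAKO (-0.38 ± 0.22, 0.291) or LynKO (-0.35 ± 0.26, 0.425). With the mouse as a block it was called in those 3 genotypes as well (adjusted p = 0.00038, 0.00364 and 0.00921), and in WT also without replicate 3 (0.0117) and with sex as a covariate (0.00923). Without the filter on low counts Cxcl1 was called in those 3 genotypes too (1.53e-07, 0.00204 and 0.000669). Pf4, higher with R848 in 15 of 16 mice, was called in no genotype by the test as reported, and in WT, LynAKO and LynKO with the mouse as a block (adjusted p = 0.0398, 0.0284 and 0.022); in LynBKO it was called without replicate 2 (0.0205) and with sex as a covariate (0.0197). Without the filter Pf4 was called in WT, LynBKO and LynKO (0.0181, 0.000268 and 0.0355).

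Cxcl3 was called in no genotype. Its log2 difference between LPS and R848 was 0.02 ± 0.21 in WT (95% interval -0.42 to 0.46) and 0.18 ± 0.20 in LynKO (-0.24 to 0.60), and single mice were on both sides, 10 higher with LPS and 6 higher with R848. Whether the ligand difference of Cxcl3 differs from that of Cxcl2 was not tested. Cxcl16 was within -0.18 to 0.17 in WT (log2 -0.01 ± 0.08), the tightest interval of the 9, and in the other genotypes its difference was -0.02 to 0.01. Cxcl5, which passed the filter through R848 libraries alone, was not called in any genotype. Its values are a description, with an interval in WT of -1.63 to 0.91.

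**Figure D2:**
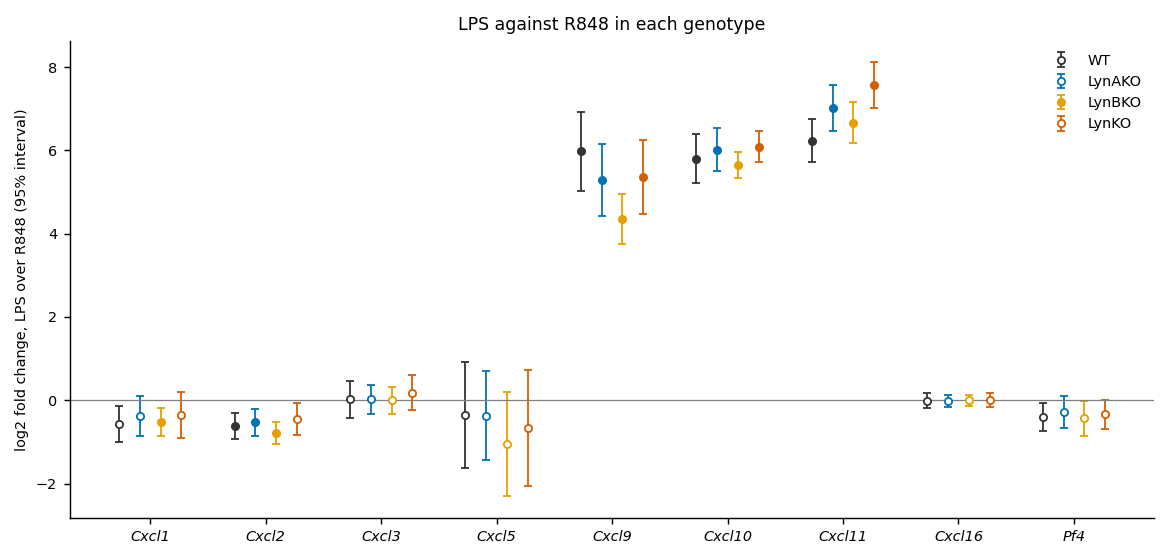
log2 fold change of LPS over R848 with its 95% interval for each member and genotype (colour); filled points passed an adjusted p of 0.05 (edgeR) and open points did not. Cxcl9 and Cxcl11 passed the filter through LPS libraries alone, and Cxcl5 through R848 libraries alone. Cxcl9, Cxcl10 and Cxcl11 lie between 4.36 and 7.57 in all 4 genotypes, and the other 6 members lie between -1.06 and 0.18.

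Set on one scale of CPM per kb of exon, the ligands changed which member led the family. The 9 members together rose from 109 to 134 CPM per kb in the untreated groups to 2516 to 3249 with LPS and 1820.2 to 2553 with R848 (group means). Untreated, Cxcl16 made up 82.6% of the summed level and Pf4 10.6%. With LPS, Cxcl10 (42.0%) and Cxcl2 (34.4%) led, followed by Cxcl1 (10.4%). With R848, Cxcl2 made up 65.0%, Cxcl1 17.9%, Cxcl16 8.80% and Cxcl10 0.889%. Cxcl11 was at most 0.346% and Cxcl9 at most 0.0831%. The log2 ratio of Cxcl10 to Cxcl2 per length had a median of -0.91 untreated (-2.16 to -0.01 over 16 libraries), 0.33 with LPS (-0.24 to 0.70) and -6.14 with R848 (-6.61 to -5.79), so the R848 libraries stood apart from all others.

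**Figure D3:**
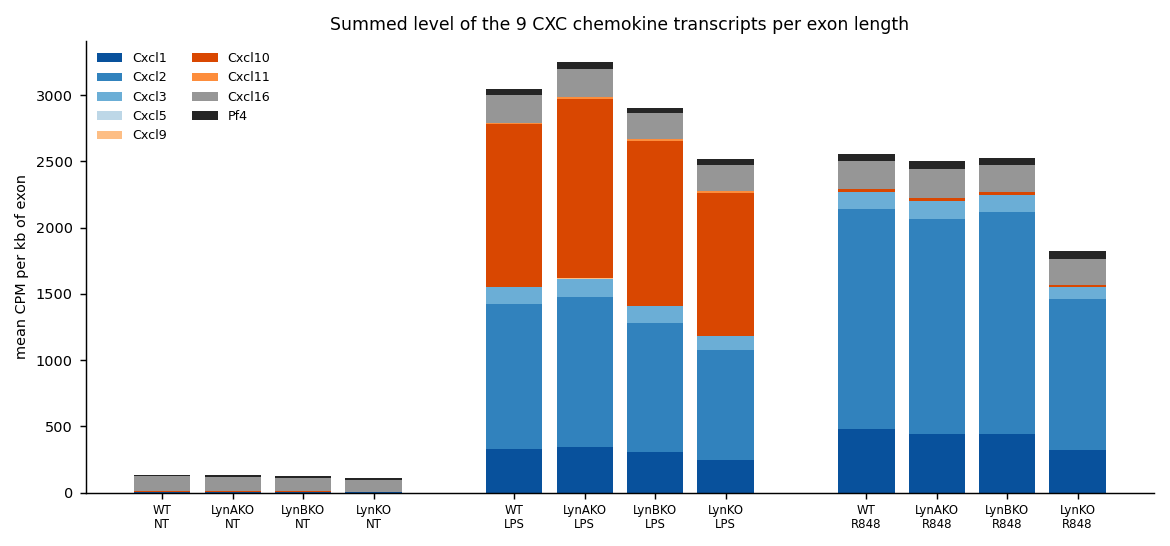
Summed mean level of the 9 members in CPM per kb of exon (bar height, from 0) for each group of 4 libraries, split by member (colour). Cxcl10 fills a large share of the LPS bars and almost none of the R848 bars, and the LynKO bar is the lowest of each treatment.

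The knockouts were compared with WT within each treatment. Untreated, Cxcl2, Cxcl10 and Cxcl16 were lower in LynKO, where 9.90% of all genes tested were called, 4.47% lower and 5.43% higher, and 0 members were higher. Cxcl10 had 11.5, 9.20, 4.70 and 5.48 CPM in WT and 2.00, 3.21, 2.24 and 2.27 CPM in LynKO, ranges that did not overlap. It was 3.13-fold lower (log2 -1.65 ± 0.30, adjusted p = 0.000969). Cxcl2 had 10.7, 13.1, 12.2 and 14.0 CPM in WT and 8.18, 4.86, 7.80 and 9.27 CPM in LynKO, with every LynKO library below every WT one. It was 1.65-fold lower (log2 -0.72 ± 0.16, adjusted p = 0.00476). Cxcl16 had 355, 330.2, 313 and 355 CPM in WT and 257, 263, 283 and 264 CPM in LynKO, again with no overlap, and was 1.26-fold lower (log2 -0.33 ± 0.06, adjusted p = 0.000671). All 3 calls held without any single library and under the other settings tried.

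**Figure D4:**
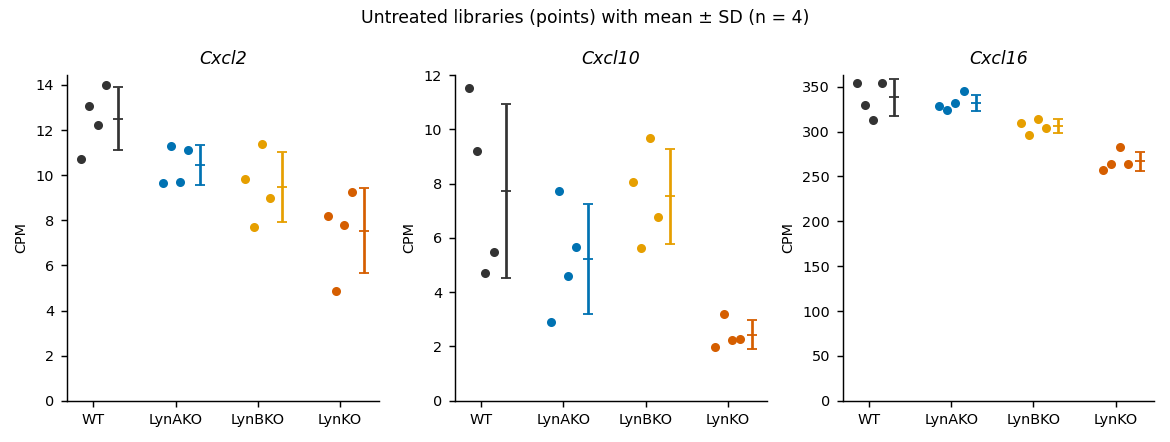
CPM of Cxcl2, Cxcl10 and Cxcl16 in the untreated libraries (points) of each genotype, with the mean ± SD of 4 (bar at the right of each group), on axes from 0. In all 3 panels the LynKO libraries lie below the WT libraries.

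The single-isoform knockouts held 0 called members without ligand (LynAKO 0.0286% and LynBKO 0.0644% of all genes called). Cxcl10 was 5.22 ± 2.02 CPM (SD, n = 4) in LynAKO and 7.53 ± 1.75 CPM (SD, n = 4) in LynBKO, against 7.73 ± 3.21 CPM (SD, n = 4) in WT and 2.43 ± 0.535 CPM (SD, n = 4) in LynKO. Its log2 difference from WT was -0.56 ± 0.28 in LynAKO (95% interval -1.13 to 0.02) and -0.03 ± 0.27 in LynBKO (-0.60 to 0.53). Cxcl2 had -0.26 ± 0.15 (-0.58 to 0.06) and -0.40 ± 0.15 (-0.73 to -0.08), and Cxcl16 -0.02 ± 0.06 (-0.14 to 0.10) and -0.15 ± 0.06 (-0.27 to -0.03). The other 3 well-counted members were not called in LynKO: Pf4 was 0.40 ± 0.23 (-0.07 to 0.87), Cxcl1 -0.17 ± 0.38 (-0.97 to 0.62) and Cxcl3 -0.50 ± 0.52 (-1.59 to 0.59). At an unadjusted p below 0.05 edgeR had 0 members in LynAKO and 2 in LynBKO (Cxcl2 and Cxcl16), and DESeq2 called 0 in each. Shares of all genes at an unadjusted p or by DESeq2 are not given, here or below. Member counts at that p or by DESeq2 are therefore a description only. LynAKO and LynBKO, compared with each other, had 0 called members by edgeR and by DESeq2 in each treatment, beside 0% of all genes, with 1 member (Cxcl16) untreated, 1 (Pf4) with LPS and 0 with R848 at an unadjusted p below 0.05.

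With ligand, 0 members were called by edgeR in LynKO against WT, beside 8.49% of all genes with LPS and 5.93% with R848. At an unadjusted p below 0.05 there were 2 members with LPS (Cxcl2 and Cxcl3) and 3 with R848 (Cxcl1, Cxcl2 and Cxcl10), and DESeq2 called 0 and 1. Without the shares of all genes beside them, these counts are not results about the members. With R848, Cxcl2 had 2018, 1734, 2827 and 2857 CPM in LynKO against 2752, 2579, 4150.5 and 4284 CPM in WT, and the ranges overlapped. Its log2 difference was -0.54 ± 0.19 (95% interval -0.94 to -0.14, adjusted p = 0.101), that of Cxcl1 -0.58 ± 0.21 (-1.03 to -0.14, 0.115) and that of Cxcl3 -0.48 ± 0.23 (-0.96 to 0.00, 0.243). Cxcl1 was called without LynKO replicate 4 (adjusted p = 0.027), the LynKO library with the most Cxcl1. Cxcl2 was called with DESeq2 (0.0468), with sex as a covariate (0.0168) and with all 48 libraries in 1 fit (0.0417). Cxcl3 was called with sex as a covariate (0.0499). Without the filter on low counts Cxcl1, Cxcl2, Cxcl3 and Cxcl10 were called (4.41e-08, 6.69e-08, 3.54e-05 and 0.00176).

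With LPS, Cxcl2 was -0.38 ± 0.15 (-0.70 to -0.07, adjusted p = 0.121), Cxcl1 -0.37 ± 0.25 (-0.90 to 0.16, 0.405) and Cxcl3 -0.32 ± 0.15 (-0.64 to -0.00, 0.211). Cxcl10 with LPS had 3352, 2112, 2369 and 1912 CPM in LynKO and 2999.9, 2484, 2567 and 3031 CPM in WT, overlapping ranges with a log2 difference of -0.17 ± 0.14 (-0.45 to 0.12). Cxcl11 with LPS stood at 35.3 to 47.9 CPM in LynKO and 27.2 to 42.1 CPM in WT (0.26 ± 0.15, -0.04 to 0.56), and Cxcl9 at 3.84 to 7.88 and 6.65 to 8.68 CPM (-0.37 ± 0.23, -0.84 to 0.11). Cxcl16 was -0.08 ± 0.07 (-0.22 to 0.06) with LPS and -0.09 ± 0.09 (-0.28 to 0.09) with R848, intervals that include 0. They do not reach the point value of its untreated difference, -0.33, which has an error of its own. The difference of its ligand responses between LynKO and WT, given below, was not called. LynAKO and LynBKO held 0 called members against WT with LPS (0.0215% and 0.0358% of all genes) or R848 (0.00715% and 0%), by edgeR and by DESeq2, with 1 at an unadjusted p below 0.05 (Cxcl11 in LynBKO with LPS).

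**Figure D5:**
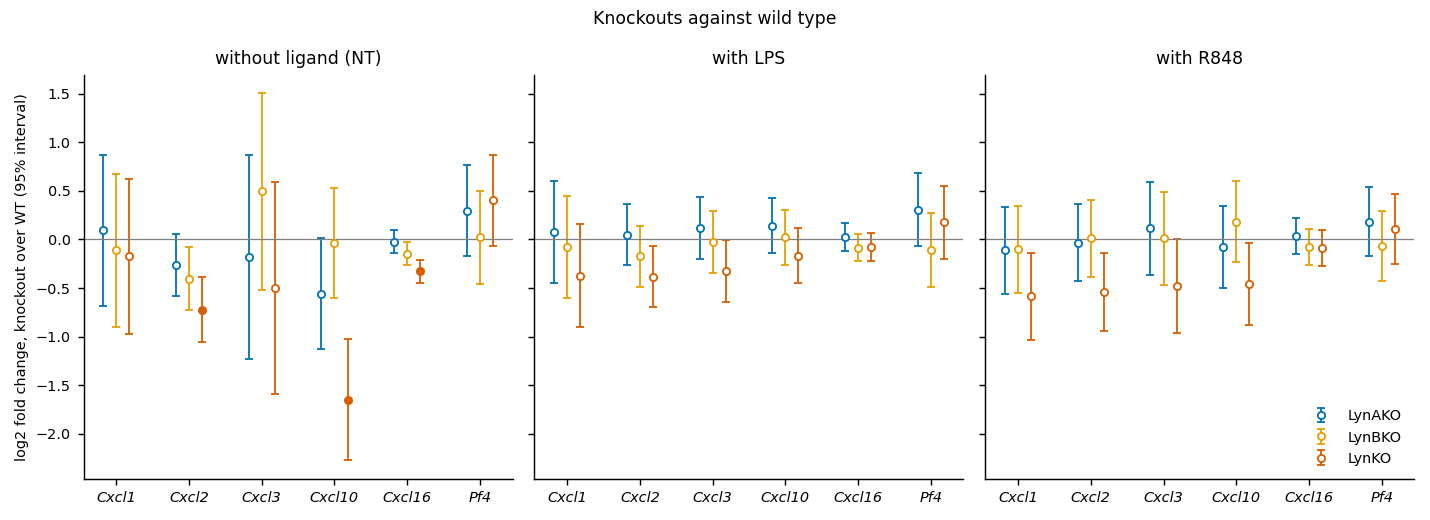
log2 fold change of each knockout (colour) over WT with its 95% interval, for the 6 members counted well without ligand, in 1 panel per treatment; filled points passed an adjusted p of 0.05 (edgeR). The 3 filled points are Cxcl2, Cxcl10 and Cxcl16 of untreated LynKO.

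The size of the ligand response was compared between LynKO and WT over all 48 libraries. Cxcl10 was higher by 994-fold with LPS in LynKO against 364-fold in WT, and 14.6-fold against 6.55-fold with R848. The difference of its log2 responses was 1.47 ± 0.36 with LPS (95% interval 0.75 to 2.18, adjusted p = 0.0713) and 1.19 ± 0.36 with R848 (0.46 to 1.92, 0.214), neither past the threshold, where 0.100% and 0.193% of all genes were called. With LPS it was called by DESeq2 (adjusted p = 0.0226) and by edgeR with the mouse as a block (0.0273). Over all alternatives adjusted p ran from 3.79e-22 (no filter on low counts) to 0.354. The 2 differences share the untreated libraries. Cxcl2 had 0.33 ± 0.27 (-0.22 to 0.88) with LPS and 0.19 ± 0.27 (-0.36 to 0.74) with R848, and Cxcl16 0.24 ± 0.10 (0.04 to 0.44) and 0.25 ± 0.10 (0.05 to 0.45), also not called (adjusted p = 0.501 and 0.398). In LynAKO and LynBKO 0 members were called by edgeR and by DESeq2, beside 0% of all genes, with 1 at an unadjusted p below 0.05 (Cxcl10 with LPS in LynAKO, 0.69 ± 0.33).

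Other genes of these pathways were read from lists chosen, like the members, with earlier results of these data known. All 10 interferon-stimulated comparison genes (Ifit1, Ifit2, Ifit3, Isg15, Rsad2, Mx1, Mx2, Oasl1, Usp18 and Cmpk2) were called higher with LPS in WT, and all 10 were higher with LPS than with R848 in each genotype. Of all genes tested, 31.5% were higher with LPS and 30.0% with R848 in WT. Over the genotypes, 9.70% to 14.2% were higher with LPS than with R848. With R848 against NT in WT, Mx1 (0.98 ± 0.22) and Mx2 (0.62 ± 0.24) were higher, Ifit2 (-0.64 ± 0.20) and Ifit3 (-1.08 ± 0.21) were lower and the other 6 were not called. The rise of Cxcl10 with R848 (2.71 ± 0.26) was larger than those of Mx1 and Mx2, a contrast between genes for which no test was run. None of the 10 was called in LynKO against WT untreated, beside 9.90% of all genes, with log2 differences of -0.34 to 0.49 where Cxcl10 had -1.65.

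Of the 18 genes of the TLR4 and TLR7 to interferon axis, 15 were higher and 1 lower with LPS in WT, 11 higher and 3 lower with R848, and 11 higher and 2 lower with LPS than with R848. Beside them, 31.5%, 30.0% and 10.9% of all genes were higher in these comparisons. Of all genes, 10.0% were lower with LPS than with R848, and the shares lower than NT are not given. Ifnb1, which encodes interferon beta, had 0.465 to 1.90 CPM with LPS over 16 libraries, 0 to 0.232 CPM with R848 and 0 to 0.108 CPM untreated. It passed the filter through LPS libraries alone, so its call among the higher genes of that list was built in and no p is given. Stat2, a subunit of the interferon-activated factor ISGF3, was 2.97 ± 0.15 on the log2 scale between LPS and R848, and Irf7 2.53 ± 0.24 (adjusted p = 5.57e-11 and 4.70e-07). In LynKO against WT untreated, 2 of the 18, Tlr7 (-0.45 ± 0.12) and Irf1 (-0.29 ± 0.07), were lower and 0 higher, beside 4.47% and 5.43% of all genes.

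Of the 12 genes of NF-kB and of mRNA decay control, 10 were higher and 2 lower with each ligand in WT. Beside them, 31.5% of all genes were higher with LPS and 30.0% with R848, and the shares lower than NT are not given. The largest with LPS were Tnfaip3, an inhibitor of NF-kB (6.38 ± 0.12), Nfkbiz, which encodes IkB-zeta (4.56 ± 0.14), and Zfp36l2, an mRNA decay factor that fell (-4.52 ± 0.15). Between LPS and R848 in WT, 5 were higher with LPS and 2 lower, beside 10.9% and 10.0% of all genes. Nfkbiz was -0.94 ± 0.12 and Zfp36l2 -1.14 ± 0.14 (adjusted p = 2.13e-05 and 7.81e-06), the direction of Cxcl2, and Tnfaip3 was 0.89 ± 0.09 (1.09e-06). In untreated LynKO, 6 of the 12 were lower and 1 higher than in WT, beside 4.47% and 5.43% of all genes. The largest of these changes were Tnfaip3 (-0.54 ± 0.14), Nfkbia (-0.52 ± 0.09) and Zc3h12a (-0.40 ± 0.08).

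The receptors and the rest of the family were mostly silent. Of 8 receptors of CXC ligands, 3 passed the filter. Cxcr4, the CXCL12 receptor, fell from 375 to 486 CPM untreated to 2.97 to 6.73 CPM with LPS and 5.88 to 11.3 CPM with R848 over 16 libraries each (-6.49 ± 0.15 and -5.78 ± 0.14 in WT, adjusted p = 2.41e-16 and 8.23e-16). Cxcr3, the receptor of CXCL9, CXCL10 and CXCL11, stood at 2.85 to 5.72 CPM untreated and was not called with either ligand. Cxcr2, the receptor of the neutrophil-attracting members, was at most 0.443 CPM. Of 6 other CXC ligands, Cxcl14 reached 163 CPM untreated and fell with LPS (-0.73 ± 0.10) and R848 (-0.96 ± 0.10) in WT, while Cxcl13 and Cxcl15 had 0 counts in all libraries. Adam17, a sheddase of CXCL16, rose by 1.03 ± 0.08 with LPS and 1.18 ± 0.08 with R848 in WT, and Adam10 fell with LPS (-0.34 ± 0.10).

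Defining markers of neutrophils were low. S100a8 stood at 0.930 to 10.8 CPM, Ly6g at most at 0.279 CPM, and S100a8 and S100a9 were called higher with each ligand in WT as the members were. The summed list was 68.7 to 219 CPM, of which Csf3r was at least 64.2 CPM. The stromal list summed to 0.380 to 23.8 CPM, with Pdgfrb up to 21.5 CPM, and the dendritic cell list to 0.402 to 13.1 CPM, with Xcr1 up to 11.6 CPM. Both of these genes were higher with each ligand in WT. Their part in the levels of the members was not tested.

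As a description over the 12 group means of log2 CPM, Cxcl1 and Cxcl2 had a Pearson r of 0.9996, Cxcl3 followed them (0.9977 with Cxcl1), and Cxcl16 (0.9866) and Pf4 (0.9762) lay close to Cxcl1. Cxcl9 and Cxcl11 had 0.9918 and Cxcl10 and Cxcl11 0.984, while Cxcl10 with Cxcl1 had 0.7334. These points share libraries, and the 3 treatments set most of their spread. Among 9354 other genes with a mean of at least 5 CPM, the pair most like each member was Zfand5 and Zfp719 for Cxcl1, Nlrp3 and Sqstm1 for Cxcl2, Pik3r5 and Nrp2 for Cxcl3, and Sprtn and Abcc1 for Cxcl5. It was Ifi35 and Ifih1 for Cxcl9, Fnbp4 and Gbp7 for Cxcl10, and Vcpip1 and Tor1aip2 for Cxcl11. It was Arl5c and Slc31a2 for Cxcl16 and Trp53rka and Cav2 for Pf4 (r from 0.9919 to 0.9993).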

How the data were processed

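Libraries of polyA RNA from 48 cultures of mouse bone marrow-derived macrophages were grouped by the labels into 12 groups of 4. The tools named by the submitters' processing notes are STAR 2.5.2b, Trimmomatic 0.36, DESeq2 and featureCounts (Subread 1.5.2), and the build is GRCm38. The order of the steps, the annotation release and the strand setting are not given in any source used here. The authors deposited raw counts per Ensembl gene, which served all tests, and a table of variance-stabilised values on a log2 scale, used here only to check that it lists the 9 members. Of 49315 genes in the count table, 48970 matched a symbol.

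The filter on low counts was filterByExpr with the 12 groups, at a minimum count of 10 and a minimum total of 15. Libraries were scaled by TMM. Tests were quasi-likelihood F tests (edgeR 4.0.16, R 4.3.3). p was adjusted by Benjamini and Hochberg over 13986 genes within each of 30 comparisons, with a threshold of 0.05. Each of 12 ligand comparisons was fitted on 12 libraries (1 genotype), each of 12 genotype comparisons on 16 libraries (1 treatment), and the 6 differences of a response on all 48 libraries. None of these fits held a term for the mouse. The ligand comparisons and response differences as reported therefore ignore that treatments share mice. Per length, CPM were divided by the exon length of GENCODE M21. Counting intervals are exact at 95%, the floor was 3 counts over a group, and both cover counting error only. Depth was 14974764 to 23321447 counts per library.

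The members and gene lists were chosen with earlier results of these data known. All members are named; of the lists, any gene of a list of at most 10, and otherwise up to 3 genes past the threshold with the largest change. Alternatives were DESeq2 1.42.0, its RLE size factors, no filter, sex as a covariate, a replicate block, other sets of libraries in the fit and leaving out each replicate. Within a genotype, the same replicate number was taken as the same mouse, which the titles do not state. In 40 pairs of same-numbered libraries the deviations from the group means correlated at 0.113 to 0.420, and all 40 correlated best with their own number. The 8 pairs that hold an untreated LynBKO library had -0.21 to 0.186, and there the sex labels of replicates 2 and 3 are exchanged. Only 2 of these 8 correlated best with their own number, so the number may not mark the mouse there. On simulated counts of 13986 genes, 67% of genes changed 2-fold and 89% of those changed 4-fold were recovered for LPS against R848 in WT, and 73% and 88% for LynKO against WT with LPS, with 11 and 10 false calls.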

Additional observations from a re-analysis of the deposited data

Results flagged for a closer look

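Among the 94 groups of 4 libraries with more than 10 counts of a member, 5 held a library whose gap to the nearest other exceeded Dixon's 95% critical value, about as many as chance gives (about 1 in 20). Cxcl1 had 1.21 CPM in 1 untreated WT library, where the others had 1.87 to 1.95 CPM. Cxcl1 had 911 CPM in 1 WT library with LPS, where the others had 496 to 516 CPM. Cxcl1 had 2.42 CPM in 1 untreated LynBKO library, where the others had 1.26 to 1.41 CPM. Cxcl3 had 391 CPM in 1 LynAKO library with LPS, where the others had 517 to 524 CPM. Pf4 had 55.2 CPM in 1 LynKO library with R848, where the others had 33.5 to 36.5 CPM.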

How the results depend on the processing

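The counts of called members for LPS or R848 against NT and for untreated LynKO against WT kept their direction and stayed within 1.5 times under the settings tried, and 0 values changed sign while called. Without a filter on low counts, more members were called: 6 for LPS against R848 in LynKO (3 with the filter), 3 and 4 for LynKO against WT with LPS and with R848 (0 with it), and 1 each for the LPS response of LynAKO, the LPS response of LynKO and the R848 response of LynKO against that of WT (0 with it); the cause was not tested. With the replicate block, 6 members were called for LPS against R848 in LynKO, 2 for LynKO against WT with R848 and 1 for the LPS response of LynKO. Between genotypes the replicates share only a number (same-numbered r -0.179 to 0.343 over 36 pairs of libraries, of which 26 correlated best with their own number). The count for LynKO against WT with R848 is therefore not a paired result. For the LPS response the block was the mouse within its genotype. For LynKO against WT with R848, DESeq2 and the fit of all 48 libraries called 1 member each, sex as a covariate 2, and leaving out each replicate gave 0 to 1. DESeq2 called 1 member for the LPS response of LynKO. The shares of all genes called under these other settings, including no filter, are not given here. These counts are therefore not results about the members. The report names each member whose call changed when 1 replicate was left out, and 156 uncalled values changed sign. The depth left Cxcl5, Cxcl9 and Cxcl11 with at most 4 untreated counts per group, so their folds are bounds or wide intervals.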
